A study of Mus musculus with 16 samples.

Results

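Bdnf, Ntf3, Ntrk2 and Ntrk3 encode the neurotrophins brain-derived neurotrophic factor (BDNF) and neurotrophin-3 and their main receptors, the tyrosine kinases TrkB and TrkC. The members were matched by symbol, and all 4 were found among the 24972 genes of the deposited files. They were measured by bulk RNA sequencing in 16 libraries from hippocampal subregions of 6 mice, 3 trained (Trained) and 3 untrained (Untrained) in active place avoidance. Trained CA1, CA3 and dentate gyrus (DG) had 3 libraries each, and untrained CA1, CA3 and DG had 3, 2 and 2.

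Every mouse had the genotype ArcCreERT2::eYFPflx on a C57BL/6 background and was 3 to 4 months old. In this line a tamoxifen-dependent Cre is placed under the promoter of the activity-induced gene Arc and can switch on a yellow fluorescent reporter. Trained mice had 4 training trials of 30 min on a rotating arena in which a fixed sector gave a foot shock. Untrained mice were placed on the same arena with the shock off. All mice had a retention test without shock on the day after the last training, and the tissue was taken 60 min after that test. By the methods, tissue pieces of an animal were pooled by subregion, and each library is labelled as 1 subregion of 1 animal. The methods list animals of both sexes in each group.

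Neurotrophins are made as longer proneurotrophins, which are packed into vesicles and cut to the mature form. Mature BDNF binds TrkB and neurotrophin-3 binds TrkC, and the activated receptors signal through the Ras and MAP kinase, phosphoinositide 3-kinase and phospholipase C gamma pathways. The uncut forms act mainly through the p75 receptor Ngfr together with sortilin family members. In the hippocampus BDNF and TrkB are best known for their part in long-term potentiation, and Bdnf is transcribed from several alternative promoters that respond to neuronal activity. Ntf3 is best known there from dentate granule cells. Ntrk2 and Ntrk3 each make a full-length kinase receptor and truncated receptors that lack the kinase, and truncated TrkB is abundant in astrocytes.

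The libraries did not separate fully by their labelled subregion. The sum of 8 dentate granule cell markers ranged from 9810 to 12088 for CA1, from 8895 to 15068 for CA3 and from 10530 to 13343 for DG, in units of the deposited normalized value. Prox1, the transcription factor that defines granule cells, ranged from 3052 to 3861 across CA1, from 2690 to 4786 across CA3 and from 3292 to 4183 across DG libraries. The sum of 7 CA1 pyramidal markers was 4049 to 6339 in untrained CA1, 2199 to 2647 in trained CA1 and 1297 to 2652 in the other libraries. The subregions are therefore named here as the labels give them, and how far each library holds tissue of its neighbours was not tested.

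**Figure D1:**
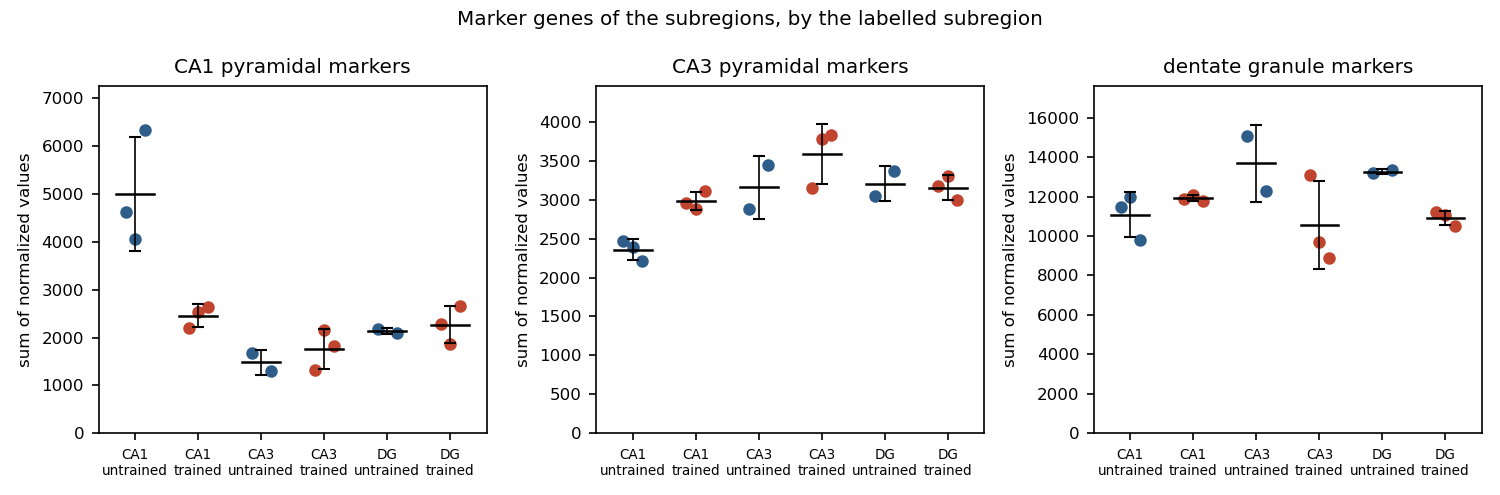
Sum of the normalized values (y axis) of CA1 pyramidal, CA3 pyramidal and dentate granule marker genes in each library, by labelled subregion and training (x axis; blue, untrained; red, trained; bar and whiskers, mean and SD). The granule cell sum in CA1, 9810 to 12088, overlaps that in DG, 10530 to 13343, and the CA1 sum is at least 4049 in the 3 untrained CA1 libraries and at most 2652 in all others.

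Other properties of the libraries moved with the groups. Xist, the transcript of the inactive X chromosome, was at 7601 to 19592 in the 9 trained libraries and at 25.5 to 52.4 in 6 of the 7 untrained ones. The library labelled CA3 untrained replicate 1 had an Xist value of 10587, although CA1 and DG of the same animal had 26.1 and 25.5. Sex-linked transcripts and training therefore separate nearly the same libraries and cannot be told apart, although animals of both sexes are listed for each group. Ddx3y, a gene of the Y chromosome, was at 255 in DG trained replicate 3 and at 201 in CA3 untrained replicate 1. It was at 70.9 and 101 in CA1 trained replicates 1 and 3 and at 92.9 in CA3 trained replicate 3. The other trained libraries had Ddx3y values of 1.7 to 12.9. Libraries labelled as 1 animal thus held both Xist and Y transcripts, and the reason was not tested. The number of genes listed at 0 was 7567 to 9759 in 7 libraries, namely the 3 of trained CA1, replicates 1 and 2 of trained CA3 and both of untrained DG, and 3124 to 5944 in the other 9. The sum of the leptomeningeal markers was 1979 to 2106 in untrained CA1 and 1030 to 1286 in trained CA1. The sum of the choroid plexus markers was 824 to 1131 in untrained CA3 and 237 to 325 in trained CA3, and in CA1 it was 1019 to 1184 and 308 to 2416. The part of these tissues in the training differences was not tested. The read depth behind the values is unknown.

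Bdnf lies on chromosome 2 of GRCm38 (chr2:109674700-109727007, plus strand), with 11 annotated transcripts. The deposited value is a sum over all of these transcripts, so use of a particular promoter cannot be read from it. As examples of the Bdnf promoters, the 150 bases before the first annotated start (promoter I) and before the start of promoter IV are given. They are from RefSeq (GRCm38.p6), 5′ to 3′ on the plus strand. Promoter IV is the promoter best known for its response to calcium influx. Capitals mark CGTCA, the short core of the cAMP response element, which binds CREB.
Bdnf promoter I, chr2:109674550-109674699: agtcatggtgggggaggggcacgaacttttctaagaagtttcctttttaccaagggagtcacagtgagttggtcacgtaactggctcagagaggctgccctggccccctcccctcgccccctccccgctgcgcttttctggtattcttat
Bdnf promoter IV, chr2:109692286-109692435: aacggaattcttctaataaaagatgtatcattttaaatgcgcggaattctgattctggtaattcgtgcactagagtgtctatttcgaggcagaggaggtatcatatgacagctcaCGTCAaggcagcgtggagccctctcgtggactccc

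Of the 7 Bdnf start windows in that table, the window of promoter IV was the only one with CGTCA on either strand. This core began 35 bases before the start, and its longer form ACGTCA was present as well. Of 32851 promoter windows of the same length, 13.3% held CGTCA or its reverse complement and 5.15% held ACGTCA. The full element TGACGTCA (1.36% of windows) and the E-box CACGTG (4.30%) were in none of the 7 windows. The 2 windows of Ntf3 and the single window of Ntrk2 had none of these letters, and Ntrk3 had no matching window. A match describes the letters and not a bound site.

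The values of Bdnf stayed within a narrow range over the subregions and training groups. In untrained CA1 the values were 642, 655 and 568, and in trained CA1 they were 668, 710 and 588. In CA3 they were 642 and 677 in untrained and 670, 644 and 637 in trained mice. In DG they were 796 and 683 in untrained and 670, 591 and 678 in trained mice. The highest library, DG untrained replicate 1, was 1.40 times the lowest, CA1 untrained replicate 3. The groups overlapped in CA1 and CA3, whereas in DG every trained library lay below both untrained ones, the closest pair being 678 and 683. In DG the groups did not overlap for 35.6% of all genes tested.

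Ntf3 (chr6:126101412-126166910, minus strand, 3 annotated transcripts) was the most variable of the 4 genes. The values were 78.8, 102 and 95.9 in untrained CA1 and 113, 105 and 124 in trained CA1. Untrained CA3 had values of 119 and 97.0, and trained CA3 had 146, 71.0 and 64.5. Untrained DG had 103 and 98.0, and trained DG had 83.6, 65.0 and 91.0. Trained libraries were above all untrained ones in CA1 and below both in DG. The groups did not overlap for 24.0% of all genes tested in CA1 and 35.6% in DG. In CA3 the trained libraries spanned the whole range, and replicate 1 had the highest Ntf3 value of the 16 libraries.

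Ntrk2 (chr13:58806569-59133970, plus strand, 10 annotated transcripts) was the most abundant of the 4 genes. Its values were 5119, 4869 and 5302 in untrained CA1 and 4979, 4881 and 4799 in trained CA1. In CA3 they were 4517 and 4577 in untrained and 4894, 4916 and 4724 in trained mice. In DG they were 5215 and 4955 in untrained and 4703, 4715 and 4712 in trained mice. Trained libraries lay above the untrained ones in CA3 and below them in DG, and the groups overlapped in CA1. Of all genes tested, 33.9% in CA3 and 35.6% in DG had groups that did not overlap. The 3 trained DG libraries differed by less than 13 units, an SD of 6.41.

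Ntrk3 (chr7:78175959-78738012, minus strand, 20 annotated transcripts) had values of 1975, 1919 and 1854 in untrained CA1 and 2038, 2136 and 2095 in trained CA1. Untrained CA3 had values of 2185 and 1948, and trained CA3 had 2150, 1974 and 1869. Untrained DG had 2065 and 1914, and trained DG had 1888, 1906 and 1834. As for Ntf3, trained libraries were higher than all untrained ones in CA1 and lower than both in DG. Such a lack of overlap was shared by 24.0% of all genes tested in CA1 and 35.6% in DG. Antisense or intronic genes overlap Bdnf, Ntrk2 and Ntrk3 in the annotation but have no row of their own in the files, and whether counting used strand is not given in the sources used here.

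**Figure D2:**
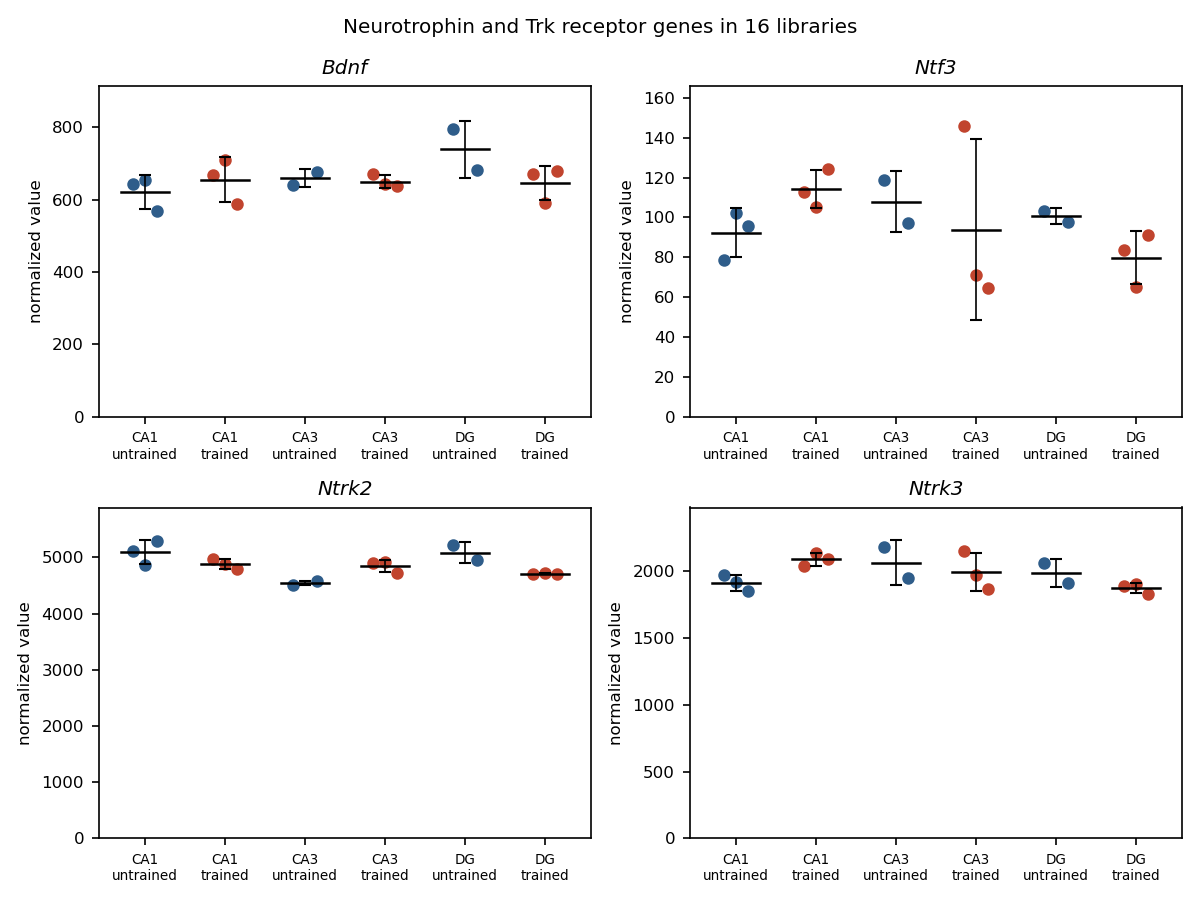
Normalized value (y axis, from 0) of Bdnf, Ntf3, Ntrk2 and Ntrk3 in each library by labelled subregion and training (x axis; blue, untrained; red, trained; bar and whiskers, mean and SD). Ntrk2 stays between 4517 and 5302 in all 16 libraries, whereas Ntf3 runs from 64.5 to 146 with its largest spread in trained CA3.

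Per kilobase of annotated exon, the order was Ntrk2, Bdnf, Ntrk3 and Ntf3. The level of Ntrk2 was 252 ± 11.2 per kilobase (SD, n = 16) and that of Bdnf 106 ± 8.51. Ntrk3 and Ntf3 were neighbours that did not separate, at 65.8 ± 3.74 and 56.8 ± 12.9. Within a library, the Ntrk2 level per kilobase was 3.23 to 4.47 times that of Ntrk3 and the Bdnf level 1.27 to 2.72 times that of Ntf3. The ratio of Ntrk3 to Ntf3 was 0.837 to 1.67, so their order changed between libraries. Per kilobase of the longest transcript that ratio was 1.11 to 2.21, with Ntrk3 above Ntf3 in every library.

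The receptors varied less between libraries than most genes of the hippocampus. Over the 16 libraries the coefficient of variation was 4.45% for Ntrk2 and 5.69% for Ntrk3, against a median of 10.7% over the 10767 genes with a mean value of at least 50. Only 1.97% of those genes varied less than Ntrk2 and 7.28% less than Ntrk3. Bdnf had a coefficient of variation of 8.05%, and 26.5% of the genes varied less. Ntf3 stood at the other end with 22.7%, and 10231 of the 10767 genes varied less. Low values vary more, and the mean value of Ntf3 was 97.4 against 4867 for Ntrk2.

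**Figure D3:**
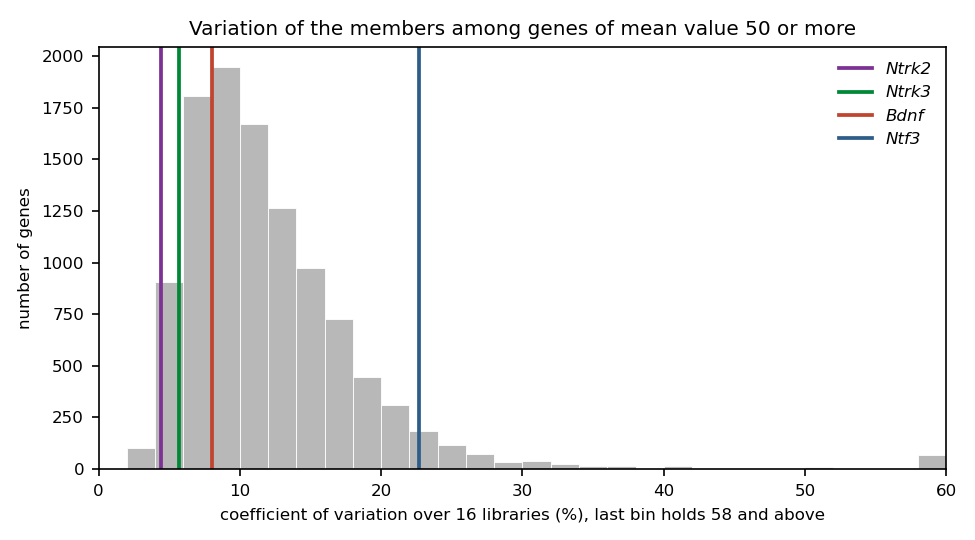
Histogram of the coefficient of variation over 16 libraries (x axis, %) for the 10767 genes with a mean value of at least 50 (y axis, number of genes), with coloured lines at the 4 genes. Ntrk2 (4.45%) and Ntrk3 (5.69%) lie in the left tail, Bdnf (8.05%) left of the median of 10.7%, and Ntf3 (22.7%) in the right tail.

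Among other genes of the neurotrophin family, Ntf5 and Ngfr had low values and the sortilin receptors higher ones. Ntf5, neurotrophin-4 and a further TrkB ligand, reached at most 6.71 over the 16 libraries. Ngfr was at 3.58 to 20.9. The sorting receptors Sort1, sortilin itself, and Sorl1 had values of 5764 to 7033 and 5817 to 6791, and Sorcs2 and Sorcs3 had 356 to 542 and 213 to 496. Sorcs1 had values of 61.4 to 115. These are values per gene, not per length.

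In CA1, the comparison of trained with untrained mice gave no call for the 4 genes. A gene was called when its limma adjusted p-value, over all genes tested, was under 0.05. In CA1 710 of 13588 genes, 5.23%, were called, and 0 of the 4. By unadjusted p, 1 of the 4 was under 0.05, against 18.9% of all genes. Bdnf differed by 0.07 on the log2 scale (trained minus untrained, 95% interval -0.10 to 0.25, limma adjusted p = 0.689). For Ntrk2 the difference was -0.06 (-0.16 to 0.04, limma adjusted p = 0.516). In percent of the untrained value, the interval of Bdnf runs from -6.70% to 18.9% and that of Ntrk2 from -10.2% to 2.46%. With a single CA1 library left out, the Bdnf difference ran from 0.01 (without untrained replicate 3) to 0.15 (without trained replicate 3). The Ntrk2 difference ran from -0.09 (without untrained replicate 2) to -0.03 (without untrained replicate 3).

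The TrkC pair had the larger differences in CA1. Ntrk3 differed by 0.13 on the log2 scale (95% interval 0.02 to 0.23, unadjusted p = 0.0273, limma adjusted p = 0.195). Ntf3 differed by 0.31 (-0.02 to 0.63, limma adjusted p = 0.303), and without CA1 untrained replicate 1 by 0.20. For both genes the trained and untrained libraries did not overlap, which was the case for 24.0% of all genes tested in CA1. The 3 trained CA1 libraries were also those with 8323 to 9759 genes at 0, against 3124 to 5425 in untrained CA1, so this property and training cannot be told apart within CA1.

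Some genes that respond to neuronal activity and to TrkB changed in CA1. Of 26 such genes tested, 8 (30.8%) were called, against 5.23% of all genes, with 6 lower and 2 higher in trained mice. The median log2 difference was -0.30 against 0.00 over all genes. The CA1 pyramidal marker sum was lower in the same comparison, 2199 to 2647 in trained and 4049 to 6339 in untrained CA1. Its part in these differences was not tested. The scaffold gene Homer1 fell from 1464 ± 73.4 to 973 ± 76.5 (SD, n = 3 each, log2 difference -0.59, limma adjusted p = 3.17e-05). The immediate early transcription factors Egr2 and Fos fell by 1.61 and 0.74 on the log2 scale (limma adjusted p = 0.00169 and 0.00521). Egr1, Egr4 and Nr4a2, further immediate early transcription factors and named here as the remaining called genes, fell by 0.96, 0.98 and 0.50 (limma adjusted p = 0.0157, 0.0108 and 0.0376). Ptgs2, the inducible cyclooxygenase, rose by 0.60, and Nrn1, the growth-promoting protein neuritin, rose by 0.30 (limma adjusted p = 0.00206 and 0.00478). Without CA1 untrained replicate 1, the adjusted p-values of Nrn1, Egr4 and Nr4a2 were 0.0544, 0.0672 and 0.140, and the list had 6 calls, since Dusp6, with -0.50, was called there (adjusted p = 0.0429, against 0.110 with all libraries). The call of Egr4 was also lost without untrained replicate 3, that of Egr1 without untrained replicate 2 or trained replicate 1 or 3, and that of Nr4a2 without untrained replicate 2 or 3 or trained replicate 2 or 3, with adjusted p-values of up to 0.108. With the replicate number as a block Nr4a2 had an adjusted p of 0.0658.

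**Figure D4:**
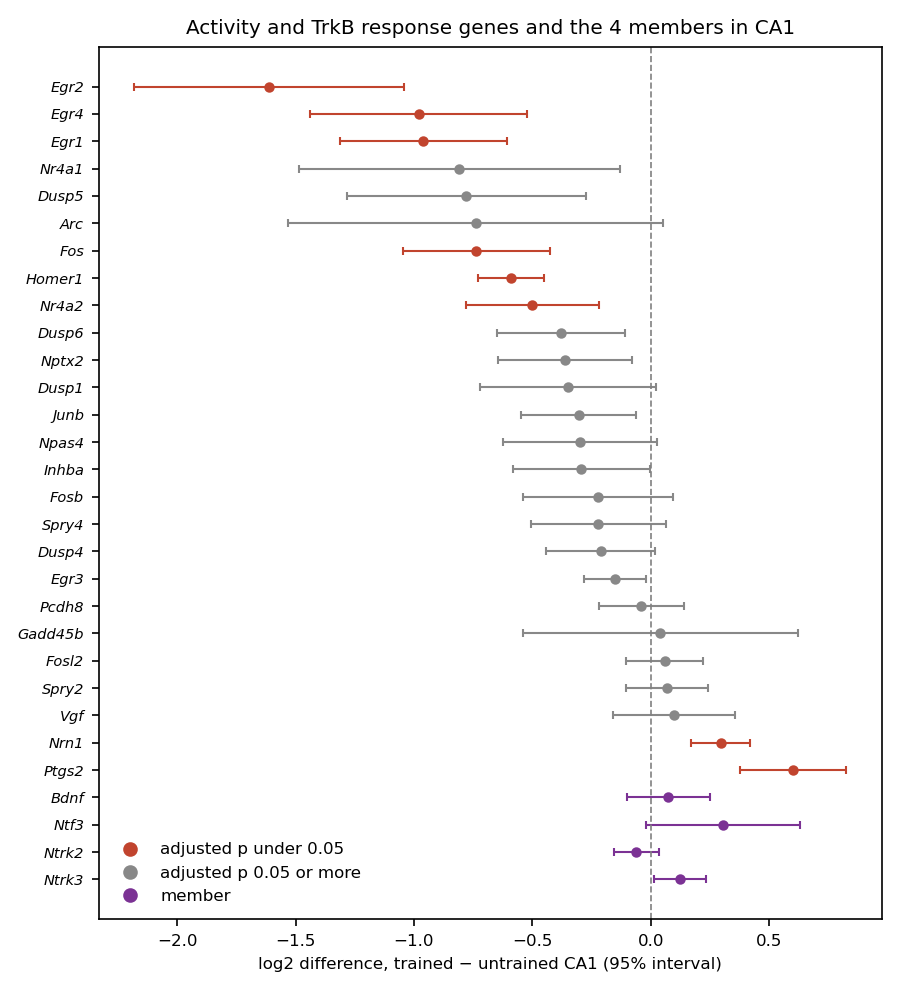
Log2 difference between trained and untrained CA1 (x axis, points with 95% intervals) for 26 activity and TrkB response genes (y axis; red, adjusted p under 0.05; grey, not) and, in violet, the 4 neurotrophin and receptor genes. Egr2 lies farthest below 0 at -1.61, while Bdnf lies at 0.07 with an interval of -0.10 to 0.25.

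Of 16 genes tested that store and cut proneurotrophins, 4 (25.0%) were called in CA1, 3 higher and 1 lower, against 5.23% of all genes. Chgb, the vesicle protein chromogranin B, rose from 3220 ± 372 to 4748 ± 52.3 (SD, n = 3 each, log2 difference 0.57, limma adjusted p = 0.000112). Hap1, a huntingtin partner in the vesicle transport of BDNF, rose by 0.49, and Pcsk2, a proprotein convertase, rose by 0.25 (limma adjusted p = 0.000277 and 0.00447). Cadps2, which primes dense core vesicles for release, fell by 0.45 (limma adjusted p = 0.00313). Without CA1 untrained replicate 1, Pcsk2 had an adjusted p of 0.0544.

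Of 29 transcription regulators of Bdnf, 2 (6.90%) were called in CA1, a share near the 5.23% of all genes. Crtc1, a coactivator of CREB, rose from 2421 ± 24.3 to 3053 ± 70.1 (SD, n = 3 each, log2 difference 0.33, limma adjusted p = 0.000268). Bhlhe40, a repressor that binds E-box letters, fell from 988 ± 52.7 to 648 ± 62.6 (log2 difference -0.61, limma adjusted p = 7.31e-05). Among 50 adaptors and kinases downstream of Trk receptors, limma called 0, with 9 at an unadjusted p under 0.05, against 18.9% of all genes tested. Among 10 ligands and receptors tested, Sorcs3 fell by 0.36 in trained CA1 (limma adjusted p = 0.0326). That call was lost without untrained replicate 1 or 3 or without trained replicate 1 or 2, with an adjusted p of up to 0.156. With all 16 libraries in the fit its adjusted p was 0.0873. Of 7 CA1 pyramidal markers 3 were called lower in trained CA1, and of 8 CA3 pyramidal markers 4 were called higher and 1 lower, and their part in the gene differences was not tested.

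In CA3, 0 of the 4 genes were called by limma, against 118 of 13848 genes, 0.852%, and none had an unadjusted p under 0.05. Bdnf differed by -0.02 on the log2 scale (95% interval -0.19 to 0.15, limma adjusted p = 0.929). Ntrk3 differed by -0.05 (-0.24 to 0.14, limma adjusted p = 0.821) and Ntrk2 by 0.09 (-0.06 to 0.24, limma adjusted p = 0.546). The trained and untrained libraries of Ntrk2 did not overlap, as for 33.9% of all genes tested in CA3.

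Ntf3 differed in CA3 by -0.29 on the log2 scale with a wide interval of -1.16 to 0.59 (limma adjusted p = 0.745). The value depended on single libraries. Without trained replicate 1 the difference was -0.65 with a limma adjusted p of 0.0516, and without trained replicate 3 it was -0.07 with an adjusted p of 0.955. Without trained replicate 2 or untrained replicate 1 it was -0.14, and without untrained replicate 2 it was -0.43. Trained replicate 1 also had a dentate granule marker sum of 13084, against 9691 and 8895 in the other trained CA3 libraries, whose Ntf3 values were 71.0 and 64.5. The part of granule cell tissue in the Ntf3 value was not tested.

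In the pathway lists, 1 of 26 activity and TrkB response genes was called in CA3, against 0.852% of all genes. Inhba, the activin subunit, fell from 248 ± 7.20 (SD, n = 2) to 143 ± 23.2 (SD, n = 3; log2 difference -0.79, limma adjusted p = 0.0325). Its call was lost without untrained replicate 1 or 2 or without trained replicate 2, with adjusted p-values of 0.262, 0.114 and 0.207. The other lists had 0 calls by limma. At an unadjusted p under 0.05 there were 2 of 11 ligands and receptors, 6 of 16 processing genes, 11 of 50 signalling genes and 7 of 29 Bdnf regulators, against 15.8% of all genes tested. With the replicate number as a block these lists had 1, 3, 5 and 7 calls, and calls over all genes moved from 118 to 1160.

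In DG all 4 genes lay lower in trained than in untrained libraries, and 0 of the 4 were called by limma, against 473 of 13935 genes, 3.39%. None had an unadjusted p under 0.05. Bdnf differed by -0.19 on the log2 scale (95% interval -0.39 to 0.00, limma adjusted p = 0.268) and Ntrk2 by -0.11 (-0.23 to 0.01, limma adjusted p = 0.286). Ntf3 differed by -0.34 (-0.74 to 0.06, limma adjusted p = 0.353) and Ntrk3 by -0.08 (-0.22 to 0.05, limma adjusted p = 0.525). With a single DG library left out, the Ntf3 difference ran from -0.44 (without trained replicate 3) to -0.20 (without trained replicate 2). Without untrained replicates 3 and 1, the Ntrk2 difference was -0.15 and -0.07 and the Ntrk3 difference -0.14 and -0.03. For each of the 4 genes the trained libraries did not overlap the untrained ones, which 35.6% of all genes tested in DG share.

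Several measures moved with this comparison in DG. Both untrained DG libraries had many genes at 0, 8636 and 7567, against 3479 to 5944 in trained DG, and within DG this cannot be told apart from training. Their dentate granule marker sums were 13180 and 13343, against 10530 to 11219 in trained DG, and the granule markers Prox1 and Stxbp6 were called lower in trained DG. The sum of 4 endothelial markers was 521 and 613 in untrained DG and 313 to 352 in trained DG, and Flt1, a receptor of vascular endothelial growth factor, was called lower. The part of these cells in the differences of the 4 genes was not tested. Without DG untrained replicate 3, the Bdnf difference was -0.30 with a limma adjusted p of 0.0528, and without untrained replicate 1 it was -0.08 with an adjusted p of 0.715. Fewer granule cells and less RNA per granule cell cannot be told apart in such bulk tissue.

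In the lists, Mef2c, an activity-dependent transcription factor, fell in DG from 2382 ± 99.5 (SD, n = 2) to 1837 ± 107 (SD, n = 3; log2 difference -0.38, limma adjusted p = 0.00997). Crebbp, the acetyltransferase CBP that works with CREB, fell by 0.27 (limma adjusted p = 0.0347), and these were the 2 calls among 29 Bdnf regulators, against 3.39% of all genes called in DG. Map2k1, the kinase MEK1 of the Trk and MAP kinase pathway, rose by 0.33 (limma adjusted p = 0.0113) as the only call of 50 signalling genes. Scg2, secretogranin II of dense core vesicles, fell by 0.35 (limma adjusted p = 0.0165) as the only call of 15 processing genes. Without trained replicate 2 the adjusted p-values of Mef2c, Crebbp, Map2k1 and Scg2 were 0.0838, 0.0867, 0.0846 and 0.108. Leaving out trained replicate 1 took away the calls of Mef2c, Crebbp and Map2k1 as well, replicate 3 those of Crebbp and Scg2, and untrained replicate 3 that of Crebbp. With all 16 libraries in the fit Mef2c and Crebbp had adjusted p-values of 0.0513 and 0.0553. Among the 26 activity and TrkB response genes and the 11 ligands and receptors limma called 0, with 4 and 1 at an unadjusted p under 0.05, against 19.5% of all genes tested.

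Across all subregions, with the subregion as a term, the intervals for the 4 genes were narrowest. This fit counts 9 trained and 7 untrained libraries as independent although training was given to 3 and 3 mice. Its intervals can therefore be too narrow. Limma called 1517 of 14673 genes, 10.3%, and 0 of the 4, with none at an unadjusted p under 0.05. Ntrk3 differed between trained and untrained by 0.01 on the log2 scale (95% interval -0.08 to 0.10, limma adjusted p = 0.936) and Ntrk2 by -0.03 (-0.10 to 0.04, limma adjusted p = 0.659). In percent of the untrained value, these intervals run from -5.50% to 6.90% for Ntrk3 and from -6.81% to 3.10% for Ntrk2. Bdnf differed by -0.04 (-0.15 to 0.08, limma adjusted p = 0.734), or -9.94% to 5.61%. For Ntf3 the difference was -0.08 (-0.39 to 0.23, limma adjusted p = 0.80), or -23.4% to 17.6%. Mean values were 651 ± 40.3 in 9 trained and 666 ± 68.4 in 7 untrained libraries for Bdnf, and 4814 ± 106 and 4936 ± 304 for Ntrk2 (SD).

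**Figure D5:**
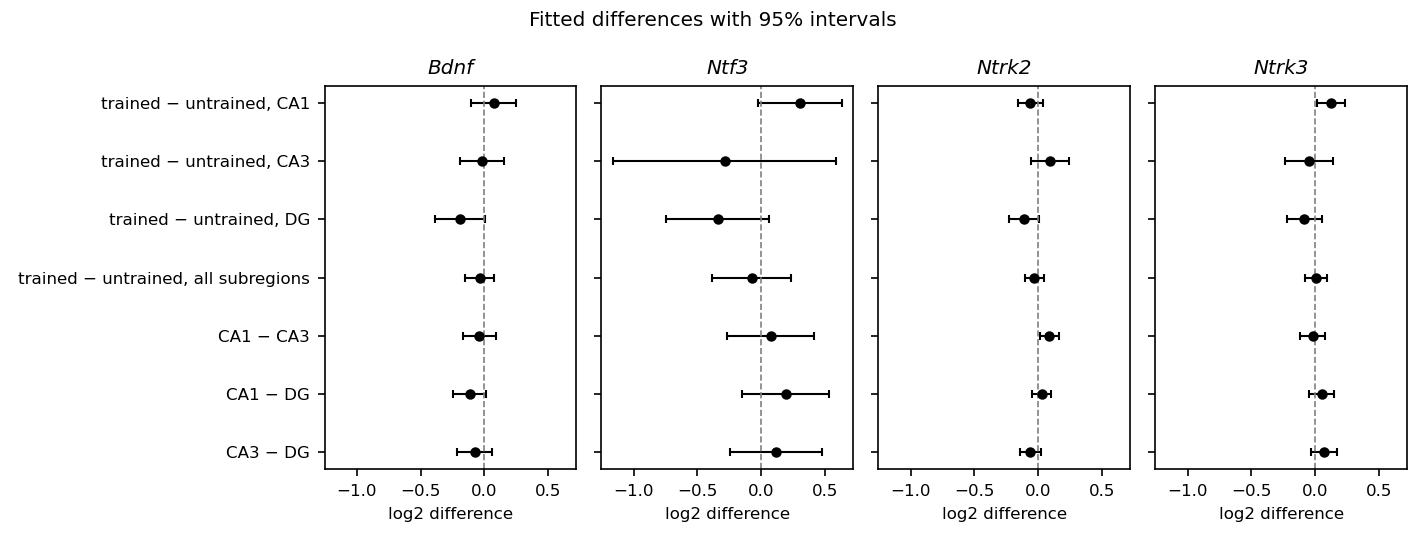
Fitted log2 difference (x axis, point) with its 95% interval (line) for each gene, for trained minus untrained in CA1, CA3, DG and all subregions, and for each pair of subregions (y axis). The intervals of Ntrk2 and Ntrk3 are short, those of Ntf3 are the longest with -1.16 to 0.59 in CA3, and no point has an adjusted p under 0.05.

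Genes around the neurotrophins were called in the combined comparison. Of 17 processing and storage genes 5 were called (4 higher, 1 lower), of 50 signalling genes 9 (3 higher, 6 lower), of 29 Bdnf regulators 4 (1 higher, 3 lower) and of 26 activity and TrkB response genes 5 (1 higher, 4 lower), against 10.3% of all genes. Limma called 0 of 11 ligands and receptors, with 0 at an unadjusted p under 0.05. Among the calls that held in each animal left out, Hap1 rose by 0.31 on the log2 scale, Map2k1 by 0.22 and Crtc1 by 0.23 (limma adjusted p = 0.00121, 0.00304 and 0.00446). Tet1, which oxidizes methylated cytosine, fell by 0.29 and Inhba by 0.46 (limma adjusted p = 0.00153 and 0.00273). The sex-linked covariate, the mean log2 value of Y genes minus that of Xist, nearly follows training. It was -12.7 to -5.53 in trained libraries and 2.39 to 3.66 in untrained ones, except -6.19 in CA3 untrained replicate 1. A fit with it can therefore hardly separate the covariate from training. With the sex-linked transcripts as a covariate, the calls of these 5 genes were lost too. The log2 difference was then 0.24 for Hap1, 0.11 for Map2k1, 0.08 for Crtc1, -0.27 for Tet1 and -0.78 for Inhba, with adjusted p-values of 0.138 to 0.871.

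The other named calls of the combined comparison were lost without at least 1 animal. They were the higher Cpe, Cadps, Map2k2, Shc2 and Ptgs2 and the lower Scg2, Pik3r1, Nras, Slitrk5, Bhlhe40, Mef2c, Egr1 and Dusp4. Untrained replicate 1 was among the animals whose removal took away the call of each of them. Without it the limma adjusted p-values lay between 0.0510 for Egr1 and 0.279 for Nras. Without trained replicate 2 the calls of Cpe, Cadps, Scg2, Map2k2, Shc2, Pik3r1, Nras, Slitrk5, Ptgs2, Egr1 and Dusp4 were lost, with adjusted p-values of 0.0506 to 0.122. Leaving out untrained replicate 2 took away those of Shc2, Egr1 and Dusp4, trained replicate 1 those of Nras, Slitrk5, Egr1 and Dusp4, and trained replicate 3 those of Nras and Slitrk5, with adjusted p-values of up to 0.116. With 1 mean per animal, which leaves 6 values, Map2k2, Nras and Dusp4 had adjusted p-values of 0.0513, 0.0712 and 0.0548, and limma called 1072 genes in all. Without the library labelled CA3 untrained replicate 1 the calls of Cadps, Nras and Dusp4 were lost, with adjusted p-values of 0.0643, 0.0540 and 0.104, and 1000 genes were called in all. With the sex-linked covariate, which nearly follows training, limma called 0 of 14673 genes, with 1702 at an unadjusted p under 0.05. In that fit the interval for Bdnf widened to -0.23 to 0.32 and that for Ntrk2 to -0.13 to 0.21.

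Whether the training difference varied between the subregions was tested with an F test of the interaction terms in a fit of the 6 groups. Limma called 156 of 14673 genes, 1.06%, and 0 of the 4. Ntrk2 had the smallest p of the 4 (unadjusted p = 0.0377, limma adjusted p = 0.293). Ntrk3, Ntf3 and Bdnf had limma adjusted p-values of 0.375, 0.444 and 0.463. In the lists Homer1 and Chgb were called (limma adjusted p = 0.00428 and 0.0267). With a term for the libraries with many genes at 0, which marked all trained CA1 and all untrained DG libraries, Homer1 and Chgb had adjusted p-values of 0.292 and 0.665, and Ntrk2, the lowest of the 4 genes, had 0.889. The call of Chgb was also lost without trained replicate 1, 2 or 3, with adjusted p-values of 0.107 to 0.121.

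The 7 libraries with many genes at 0 had somewhat higher means of all 4 genes, with ranges that overlapped. The mean of Ntf3 was 109 ± 23.2 in those 7 and 88.5 ± 17.6 in the other 9 libraries (SD). The mean of Ntrk3 was 2053 ± 85.8 against 1931 ± 105, that of Bdnf 680 ± 63.5 against 640 ± 37.9 and that of Ntrk2 4948 ± 131 against 4804 ± 254. These 7 libraries are not a group of the study.

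No difference of the 4 genes between the labelled subregions passed the test. In limma, 145 of 14673 genes (0.988%) were called between CA1 and CA3, 594 (4.05%) between CA1 and DG, and 1 (0.00682%) between CA3 and DG. Of the 4 genes 0 were called in each contrast, and 1, 0 and 0 had an unadjusted p under 0.05. In every contrast the libraries of the subregions compared overlapped for all 4 genes. The granule cell marker sums of the labelled subregions overlapped as well, and the part of shared tissue in these contrasts was not tested.

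Ntrk2 had means of 4991 ± 188 in CA1 (SD, n = 6), 4860 ± 225 in DG (SD, n = 5) and 4726 ± 180 in CA3 (SD, n = 5). The log2 difference of CA1 minus CA3 was 0.09 (95% interval 0.01 to 0.16, unadjusted p = 0.0237, limma adjusted p = 0.361). It was 0.16 within untrained and 0.01 within trained libraries. The order of Bdnf was DG at 684 ± 72.9, CA3 at 654 ± 18.2 and CA1 at 638 ± 52.4. The Bdnf difference of CA1 minus DG was -0.12 (-0.24 to 0.01, limma adjusted p = 0.319).

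For Ntf3 the order was CA1 at 103 ± 15.5, CA3 at 99.4 ± 33.8 and DG at 88.2 ± 14.96. The CA1 minus DG difference of Ntf3 was 0.19 on the log2 scale (95% interval -0.15 to 0.53, limma adjusted p = 0.570). Ntrk3 was at 2025 ± 136 in CA3, 2003 ± 107 in CA1 and 1921 ± 86.2 in DG. The CA3 minus DG difference of Ntrk3 was 0.07 (-0.03 to 0.17, limma adjusted p = 0.814). In each of these orders the libraries of neighbouring subregions overlapped. The Bdnf means of DG and CA3 lay further apart than the SD of 18.2 in CA3, but not than that of 72.9 in DG.

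Among the genes around them, Sorcs3 was the receptor that differed between subregions. It was higher in CA1 (394 ± 63.9) than in CA3 (280 ± 59.6), by 0.54 on the log2 scale (limma adjusted p = 0.00322). Within trained libraries the adjusted p was 0.739. Against DG (315 ± 25.3) it was higher by 0.32 (limma adjusted p = 0.0450), and with the animal as a block the adjusted p was 0.0593. Within trained libraries the difference from DG was 0.09 (adjusted p = 0.756). That second call was also lost without untrained replicate 2 or 3 or trained replicate 2 or 3, with an adjusted p of up to 0.263.

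In the other lists, Egr1, Dusp6, a phosphatase that shuts off MAP kinases, and Bhlhe40 were higher in CA1 than in CA3 by 0.58, 0.43 and 0.28 on the log2 scale (limma adjusted p = 0.00473, 0.0100 and 0.0202). Within trained libraries their adjusted p-values were 0.770, 0.658 and 0.839. Without untrained replicate 2 the adjusted p of Egr1 was 0.0606 and that of Bhlhe40 0.206, and without trained replicate 2 that of Dusp6 was 0.0661 and that of Bhlhe40 0.219. Without trained replicate 3 that of Dusp6 was 0.119, and without trained replicate 1 that of Bhlhe40 was 0.0510. Without the library labelled CA3 untrained replicate 1 that of Dusp6 was 0.0767. Against DG, Dnmt3a, a DNA methyltransferase, was higher in CA1 by 0.28 (limma adjusted p = 0.00793), and Nrn1, Chgb, Cadps and Mapk3 were lower by 0.19 to 0.30. Without trained replicate 2 these 5 genes had adjusted p-values of 0.0556 to 0.191, and without untrained replicate 3 of 0.0778 to 0.192. Within trained libraries the log2 differences were 0.28 for Dnmt3a, -0.12 for Nrn1, 0.16 for Chgb, -0.17 for Cadps and -0.07 for Mapk3, with adjusted p-values of 0.0552 to 0.696. Within untrained libraries the calls of Dnmt3a (0.28) and Cadps (-0.21) were lost too, with adjusted p-values of 0.0648 and 0.121. Those of Nrn1, Chgb and Mapk3 were kept there. The calls of Cadps, Chgb and Mapk3 were also lost without others of the 6 animals, with adjusted p-values of up to 0.195. Mapk3 encodes the MAP kinase ERK1. With the animal as a block Mapk3 had an adjusted p of 0.0632. Between CA3 and DG limma called 0 genes of the lists, with 14 of 133 (10.5%) at an unadjusted p under 0.05, against 6.86% of all genes tested.

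The 4 genes were also compared with each other across libraries. The libraries share 6 animals and the same normalization, so the correlations are descriptions. Ntf3 and Ntrk3, the TrkC pair, had a Pearson r of 0.68 and a Spearman rho of 0.75 over 16 libraries on the log2 scale. The r was 0.57 without the 2 libraries farthest from the Ntf3 median, 0.78 within 9 trained and 0.54 within 7 untrained libraries. Bdnf and Ntrk2, the TrkB pair, had an r of 0.09 and a rho of 0.06. Within the libraries with many and with few genes at 0 that r was 0.87 and -0.58.

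Marker sums of more than 1 cell type moved with the TrkC pair. The r of the dentate granule sum was 0.70 with Ntf3 and 0.68 with Ntrk3 over 16 libraries, against 0.42 with Bdnf and -0.15 with Ntrk2. Within trained libraries the r with Ntf3 was 0.84 and within untrained ones 0.62. With Ntrk3 it was 0.20 in the 7 libraries with many genes at 0 and 0.87 in the other 9. The endothelial sum had an r of 0.64 with Ntf3 and 0.65 with Ntrk3. Ntrk2 had an r of 0.64 with the CA1 pyramidal marker sum, but -0.14 within trained and 0.73 within untrained libraries. The part of tissue composition in these values was not tested.

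The genes whose pattern over the 16 libraries was most like each member were found by Pearson r among 10767 genes. For Ntrk3 these were Ksr2 (0.956), Kcna4 (0.910) and Slc7a14 (0.901). For Ntrk2 they were Kif21b (0.895), Cdk5r2 (0.843) and Asap1 (0.839). Ntf3 was most like Dusp18 (0.877), Cxcl12 (0.857) and Akap7 (0.847), and Bdnf was most like Zc3h4 (0.849), 2810004N23Rik (0.788) and Taf6 (0.779). Only 1 gene had an r over 0.8 with Bdnf, against 44 with Ntrk3.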

How the data were processed

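Bulk RNA sequencing values of 16 hippocampal libraries were used. Per the labels and the methods, the authors depleted ribosomal RNA, trimmed reads, aligned them with STAR and quantified genes with Salmon. The labels name GRCm38. The deposited signal is taken as estimated counts per gene that the authors scaled between libraries, by a method not given in the sources used here. Values are not whole, sums per library were 7607326 to 7984931, and whole reads could not be recovered, so a count model could not be used.

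Differences were fitted with limma 3.58.1 in R 4.3.3 on log2(value + 2), allowing the variance to follow the mean, with robust variances and p-values adjusted by Benjamini-Hochberg over all genes with a value of at least 10 in 3 (CA1) or 2 libraries. Fold changes of low genes are understated on this scale. Training was compared within each subregion and over all with subregion as a term, and subregions in a fit of 6 groups. Libraries of an animal were treated as independent: their deviations from group means had correlations of -0.28 to 0.21. Subregions of an animal share its replicate number, whereas same-numbered trained and untrained animals are different animals. The fits were tested on simulated data.

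The 4 genes, the lists, the tests and the alternatives were chosen with earlier results of these data known. Named list genes are up to 3 per direction, list and comparison with the smallest adjusted p under 0.05, and exceptions are stated. Exon lengths are from GENCODE. Some genes of the lists are not reported here.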

Additional observations from a re-analysis of the deposited data

Results flagged for a closer look

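Within a subregion, 24.0% to 35.6% of all genes tested had trained and untrained libraries that did not overlap. Ntf3 was marked because all trained libraries were higher in CA1 (log2 difference 0.31) and all were lower in DG (-0.34). Ntrk3 had the same pattern, with 0.13 in CA1 and -0.084 in DG. Ntrk2 was marked because trained libraries were higher in CA3 (0.091) and lower in DG (-0.11). Without CA1 untrained replicate 1 the CA1 value of Ntf3 was 0.20, and without DG untrained replicate 1 the DG value of Ntrk3 was -0.03. The difference of a single pair of subregions was not tested. The joint F test over the 3 subregions gave limma adjusted p-values of 0.444, 0.375 and 0.293. No library of the 4 genes stood apart from its subregion or training group by the rule for single outlying samples.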

How the results depend on the processing

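Of the 4 genes, 0 were called in each of the 8 comparisons under every alternative run, in 512 tests, and the smallest adjusted p was 0.0516. The alternatives reuse the same libraries and are not independent checks. Median-of-ratios rescaling left the counts of all called genes unchanged in the comparisons fitted on 16 libraries. Unadjusted p-values were under 0.05 in 7 tests of Bdnf, 4 of Ntf3, 22 of Ntrk2 and 11 of Ntrk3. The sign of the log2 difference turned in 29 of 448 tests, all with adjusted p-values over 0.05, and the cause was not tested. For training in all subregions, the sex-linked covariate, which nearly follows training, gave 0.044 for Bdnf, 0.039 for Ntrk2 and -0.15 for Ntrk3. In the same comparison Ntrk3 was at -0.0026 with upper-quartile rescaling and -0.019 with a term for genes at 0. For CA1 against CA3, Ntf3 was at -0.032 with that term and -0.22 within untrained libraries, Ntrk3 at 0.021 without the CA3 library of untrained replicate 1 and 0.067 within trained libraries, and Bdnf at 0.007 within trained libraries. For CA1 against DG, Bdnf was at 0.018 and Chgb at 0.16 within trained libraries, and Ntf3 at -0.13 and Ntrk3 at -0.054 within untrained libraries. For CA3 against DG, Bdnf was at 0.011 and Ntrk2 at 0.040 within trained libraries.

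Leaving out each library of a group or each animal also turned signs. The differences then ran from -0.057 to 0.019 for Bdnf and -0.13 to 0.034 for Ntrk3 in CA3, the upper ends without untrained replicates 2 and 1. In all subregions they ran from -0.075 to 0.0055 for Bdnf, -0.20 to 0.028 for Ntf3 and -0.015 to 0.067 for Ntrk3. For CA1 against CA3 they ran from -0.063 to 0.26 for Ntf3 and -0.062 to 0.016 for Ntrk3, for CA1 against DG from -0.0052 to 0.045 for Ntrk2, and for CA3 against DG from -0.045 to 0.27 for Ntf3. With the longest transcript in place of all exons, levels per kilobase were 557 for Ntrk2, 154 for Bdnf, 101 for Ntrk3 and 65.6 for Ntf3.

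The replicate block, the replicate number or animal as a term, left 0 of the 4 genes called in each comparison and, among the named genes, took away the calls of Sorcs3 and Mapk3 for CA1 against DG and of Nr4a2 in CA1 and no others. The animals of the training groups are not paired, and numbers shared between them correlated from -0.204 to 0.099. The block moved all calls in CA3 from 118 to 1160. With a single library left out, counts of all genes moved from 710 to between 329 (untrained replicate 1) and 865 (untrained replicate 3) in CA1, from 118 to between 7 (trained replicate 2) and 680 (trained replicate 1) in CA3, and from 473 to between 28 (trained replicate 2) and 1583 (untrained replicate 3) in DG. With an animal left out, the count over all subregions moved from 1517 to between 456 (untrained replicate 1) and 1873 (untrained replicate 3). With no filter on low values CA1 had 1877 calls. CA1 against CA3 had 0 calls within trained libraries (1177 at an unadjusted p under 0.05), CA1 against DG had 113 without trained replicate 2, CA3 against DG had 0 to 23, and the interaction had 1 to 797. Other settings also took calls of named genes over the threshold. With no robust estimation the adjusted p-values were 0.0518 for Sorcs3 in CA1, 0.0508 for Inhba in CA3, 0.0528 for Crebbp in DG and 0.0591 for Nr4a2 in CA1, and for CA1 against DG 0.0583 for Sorcs3, 0.0526 for Cadps and 0.0504 for Mapk3. With no filter on low values they were 0.0543 for Dusp4 in all subregions and 0.0586 to 0.0693 for Sorcs3, Cadps, Chgb and Mapk3 in CA1 against DG. Upper-quartile rescaling gave 0.0510 for Sorcs3 there, and the term for genes at 0 gave 0.0549 for Chgb there and 0.0574 for Dusp4 in all subregions.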
